A study of Homo sapiens with 8 samples.

Results

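The subline DS6 is compared here with PC9-VU, the cell line version it was grown from, along the chromosomes of the PC9 genome. The comparison rests on 2 of the 8 bulk RNA-seq libraries of the study, 1 library per population. Each row of the deposited count table was placed at the hg38 position of the gene it is named for, and rows were kept where their mean over the 8 libraries reached 50 counts. Of 30988 rows, 8324 have no gene symbol and were left out. Of the 22664 named rows, 11319 hold at least 1 count in DS6 or PC9-VU and 4604 reach the mean of 50, of which 4529 have a single position on chromosomes 1 to 22 or X in release 44 of the GENCODE annotation and enter the description. The other 75 do not.

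PC9 is a human non-small cell lung cancer cell line whose growth depends on an activating deletion in EGFR, the receptor for epidermal growth factor, and the study asks how much of the variability of such a line is genetic. PC9-VU is the version cultivated at Vanderbilt University, and DS6 is 1 clone grown from a single PC9-VU cell, isolated by limiting dilution after the nuclei had been labelled with a fluorescent histone, so it stands for 1 cell of that version and not for sublines in general. The other 6 populations are the sublines DS3, DS7, DS8 and DS9, made in the same way, PC9-BR1, a version derived from PC9-VU by rising doses of the EGFR inhibitor afatinib and carrying a secondary resistance mutation in EGFR that PC9-VU and DS6 lack, and PC9-MGH, a version kept at Massachusetts General Hospital. All share the EGFR deletion and the nuclear label, and all libraries were made from cells grown without drug in RPMI medium with serum, at passages 8 to 10.

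A cancer cell line such as PC9 is aneuploid, and its cells can carry different numbers of a chromosome or of an arm. A subline grown from 1 cell starts with the chromosomes of that cell, whereas the parental version is a mixture. Because many transcripts follow the number of gene copies, neighbouring genes that are lower or higher together are commonly described by arm, but RNA levels are not a count of DNA copies, and no DNA copy number was analysed here. In a bulk library a lower level in every cell and a loss in some of the cells cannot be told apart, nor can fewer cells of a type and less RNA per cell.

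The position of a row is that of its name and not of a transcript. The exons of the named genes were moved along each arm by up to 1500000 bases in either direction, leaving out the nearest 20000, to find where they met exons of protein-coding genes more in these rows than in rows with nearly no counts. In 7q this was at -371000 bases, where 15.6% of the exon length met such an exon against 3.8% in the rows with nearly no counts, a difference of 11.8 points against 8.1 at the next best distance. In 15q it was at 292500 bases (11.4 points against 7.9) and in 17p at -95500 bases (20.6 points against 12.9). In 4p the best match lay at the border of the part left out, and no distance is given. The search left out the shortest distances and returns a best distance for any arm, so it cannot show by itself that rows are displaced. The counts of a row may come from elsewhere on the arm than the gene it is named for. For this reason no gene is named or interpreted below, and markers of lung cancer cells could not be checked. Among the other arms described, the best distance was 1421000 bases in 21q (14.1 points against 12.7), -1377500 in 20q (13.6 against 10.2) and 1367500 in 9q (6.6 against 5.6). In 21q the next best distance lay in the opposite direction, at -711500 bases. The best and next best distances were nearly tied in 5q (10.1 points against 10.1), 10p (9.4 against 9.3) and 9p (8.7 against 8.3). Arms and windows of 25 neighbouring rows are described instead. Positions in Mb carry an uncertainty that could reach or exceed the distances in 21q, 20q and 9q, which lie near the limit of the search.

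The named rows sum to 2904610 counts in DS6 and 3497722 in PC9-VU, and to between 2717355 and 3497722 over the 8 libraries. Values are log2 CPM (the count of a row scaled to a common library total, with TMM factors and a prior count of 2), and a difference is always DS6 minus PC9-VU unless stated otherwise. Neither population has a replicate library, so no difference could be set against replicates and no test or p-value is given. The interval printed with a median is the 95% order-statistic interval of that median over the rows of the arm or window. It treats rows as independent and narrows with their number. It is therefore not the spread of the rows, and it does not cover variation between replicate libraries. Intervals of summed counts cover counting error only.

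Most of the 4529 rows lay at a similar level in DS6 and its parent. DS6 was above PC9-VU in 2296 rows (50.7%) and below it in 2233 (49.3%). The median difference over the 4529 rows was 0.0051, with an SD of 0.39 between rows and quartiles of -0.18 and 0.20, while counting alone gives a median standard error of 0.13 per row. The even split and the median near 0 follow from the scaling, which centres the bulk of the rows, and do not measure similarity. With library totals only, the median was -0.032. DS6 was at least 1.5-fold above PC9-VU in 217 rows, which is 4.79% of those described, and at least 1.5-fold below in 214 rows, or 4.73%. At 2-fold these were 34 rows (0.751%) above and 54 rows (1.19%) below. Such rows were more frequent among rows with few counts. Just inside the filter, at a mean of 50 to 60 counts, 20.6% of 233 rows were at least 1.5-fold apart in either direction, and just outside it, at 40 to 50 counts, 23.7% of 283 rows.

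With the scaling used, the higher and the lower rows were similar in number but not in where they lay. With library totals only, 184 rows were at least 1.5-fold higher and 246 at least 1.5-fold lower. Across 165 windows of 25 neighbouring rows, 94 medians were above 0 and 71 below, and 144 were within 0.2 of 0. None (0.0%) of the windows had a median at least 0.32 above PC9-VU on the log2 scale (a ratio of 5 to 4, of which 0.32 is the rounded logarithm), whereas 6 (3.64%) were at least that far below it. These 6 are 4p window 4, 15q window 5, 21q window 1 and windows 1 to 3 of 7q, while 7q window 4, at -0.32 when rounded, fell just short of the limit. All 25 rows were below PC9-VU in 2 windows, and in no window were all above.

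**Figure D1:**
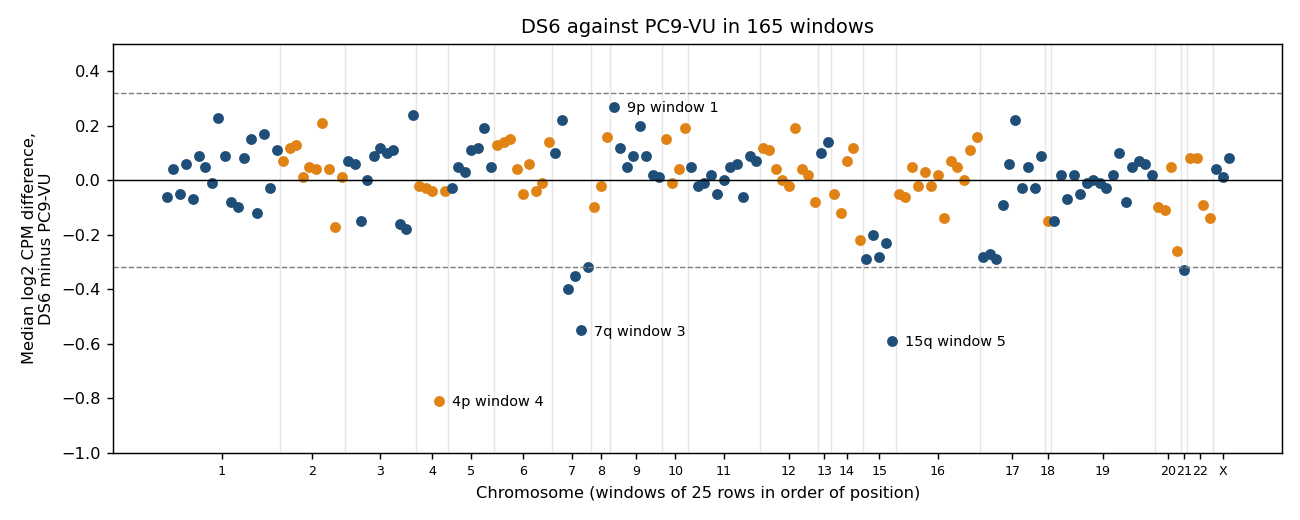
Median log2 CPM difference, DS6 minus PC9-VU (vertical axis), of each of the 165 windows of 25 rows in order of chromosome and position (horizontal axis, colours alternate by chromosome); dashed lines mark log2 differences of 0.32 and -0.32. The lowest windows are 4p window 4 at -0.81, 15q window 5 at -0.59 and 7q window 3 at -0.55, and no window lies above the upper line.

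By arm, 40 arms with at least 25 rows had 25 medians above 0 and 15 below, and 28 of them were within 0.1 of 0. The 4 arms at or below -0.2 were 7q (-0.39, interval -0.46 to -0.32), 21q (-0.35, interval -0.40 to -0.24), 15q (-0.30, interval -0.36 to -0.25) and 17p (-0.28, interval -0.34 to -0.23). The next arm in this order was 4p at -0.13. The intervals of the 4 lowest arms overlap, so their order among themselves is not resolved by these intervals. On the upper side the largest medians were 0.20 in 7p (interval 0.10 to 0.25), 0.15 in 10p, 0.13 in 9p, 0.12 in 12p and 0.11 in 5q, whose intervals overlap as well. Against the median of the other 6 libraries in place of PC9-VU, these were 0.10 in 7p, 0.28 in 10p, 0.04 in 9p, 0.18 in 12p and 0.06 in 5q. Against PC9-VU, the 4 lowest arms stood farther from 0 than the highest.

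**Figure D2:**
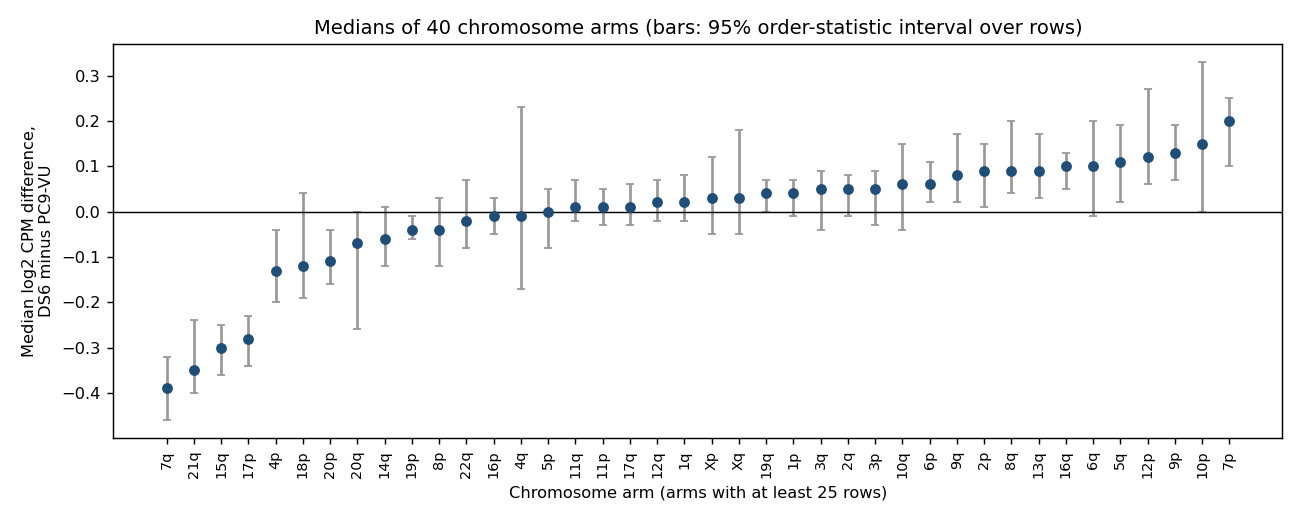
Median log2 CPM difference, DS6 minus PC9-VU (vertical axis), of the 40 chromosome arms with at least 25 rows, ordered by median; bars are the 95% order-statistic interval over rows. The arms 7q, 21q, 15q and 17p sit at or below -0.28, and the highest, 7p, reaches 0.20.

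The 4p window 4, 7q, 15q, 17p and 21q together hold 415 rows, or 9.16% of all, and 96 of the 214 rows that were at least 1.5-fold lower in DS6, or 44.9%. They hold 4 of the 217 higher rows, or 1.84%. Among the other 4114 rows the median was 0.031, with 2.87% lower and 5.18% higher by 1.5-fold. These stretches were put together because their medians were low, so the shares describe where the lower rows lay and support nothing further.

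The deepest difference was at the centromeric end of 4p. In its last window, chr4:38867677-48906937 (38.9 to 48.9 Mb), the summed level of the 25 rows was 4933 CPM in DS6 and 8034 CPM in PC9-VU. The other 6 libraries were between 5827 CPM (PC9-MGH) and 9148 CPM (DS9), so DS6 was below all of them. The median difference was -0.81 (interval -1.0 to -0.56), a level 0.569 times that of PC9-VU, and all 25 rows were below the parent, against 49.3% of all rows. Of these, 17 (68.0%, against 4.73% of all rows) were at least 1.5-fold lower, and DS6 was the lowest of the 8 libraries in 19, against 10.3% of all rows. The ratio of summed counts was 0.614 (exact 95% interval 0.602 to 0.626). A single row held 46.3% of the counts of the window, but the median does not weight rows by counts, and it was -0.79 in the rows above the middle of the window in counts and -0.84 in the others.

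The low level began abruptly along the rows of 4p. Rows 1 to 70 of the arm (0.5 to 27.0 Mb) had a median of -0.02, with 33 rows above PC9-VU and 37 below, and the first 3 windows of the arm were at -0.02, -0.03 and -0.04. Rows 71 to 100 (30.7 to 48.9 Mb) had a median of -0.86 (interval -1.0 to -0.62). All 30 were below PC9-VU, 22 of them (73.3%, against 4.73% of all rows) at least 1.5-fold. Without the first of these rows, which had 0 counts in DS6, the median was also -0.86. Across the centromere, the first window of 4q (52.6 to 128.2 Mb) was at -0.04. The border at row 71 was chosen after the values were seen, and the gap between rows 70 and 71 spans several megabases with no row of sufficient counts. Row 71 also had only 1 count in DS3, and row 72 starts at 35.9 Mb. Where the change lies between 27.0 and 35.9 Mb was not resolved.

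In these 30 rows, DS6 stood apart from the other libraries. Measured against the median of all 8 libraries, DS6 was at -0.74, the other 4 sublines were between -0.02 and 0.09, PC9-VU was at 0.01, PC9-BR1 at 0.14 and PC9-MGH at -0.23, so the nearest library lay 0.51 above DS6. Of the 165 windows, the 4p window 4 was the only one in which DS6 was at least 0.32 below all 7 others on the log2 scale, and in none was it as far above all of them. The same count was 7 below and 7 above for PC9-MGH, 3 and 3 for PC9-BR1, 1 and 5 for DS8, and 0 and 0 for PC9-VU, DS3, DS7 and DS9. These counts depend on where the windows start. With windows counted from the end of the arm, DS6 was also 0.50 below the next library in the last window of 15q (78.6 to 101.5 Mb).

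**Figure D3:**
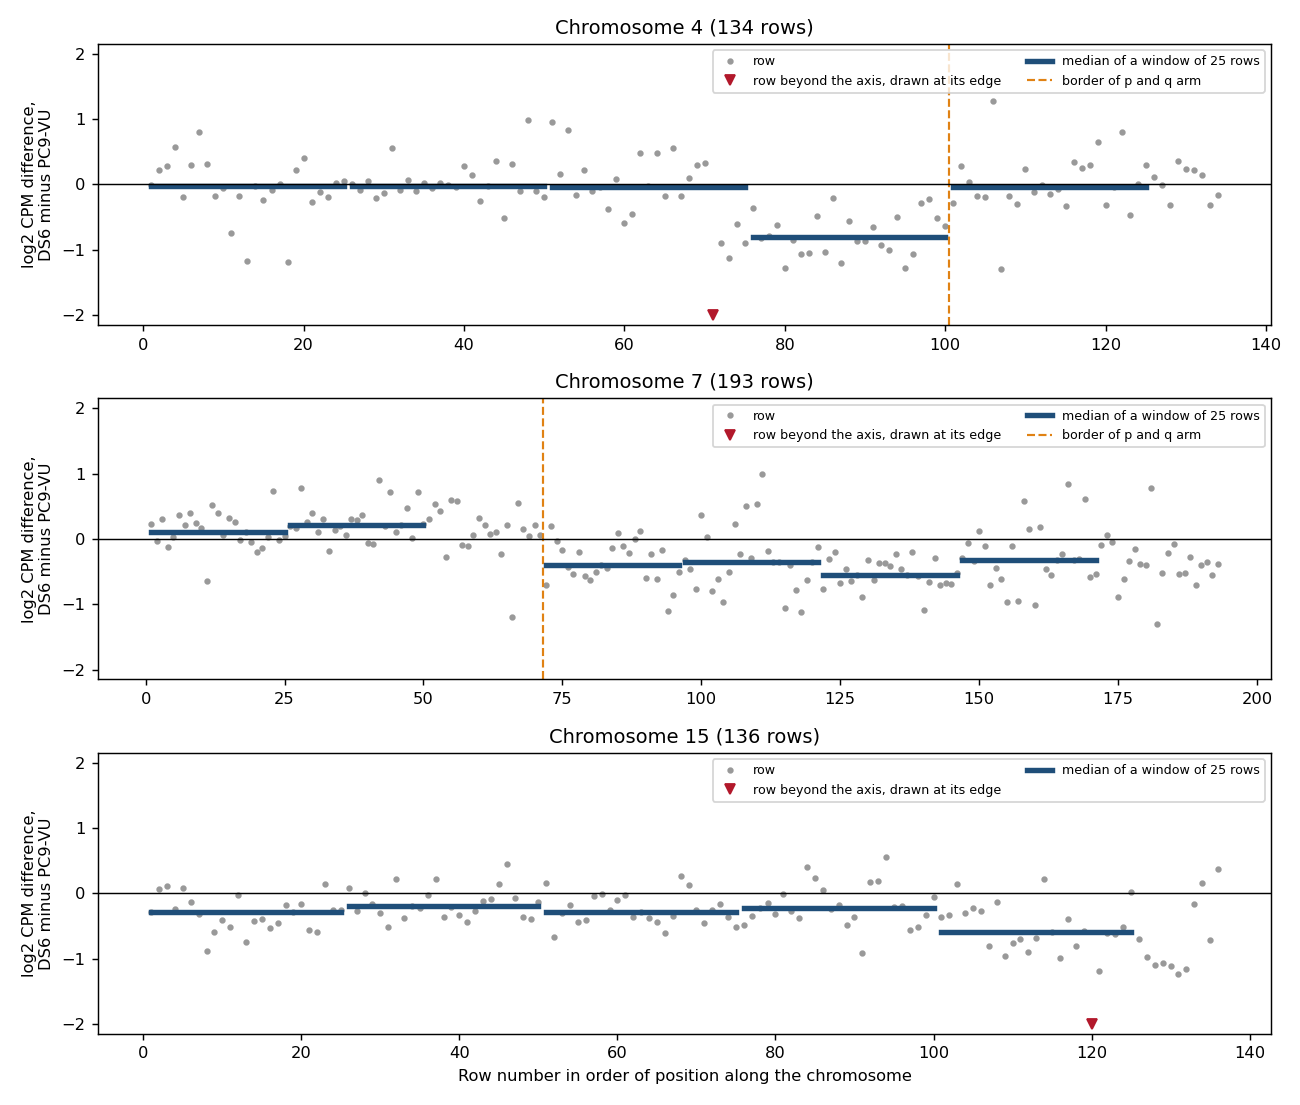
Log2 CPM difference, DS6 minus PC9-VU (vertical axes), of every row of chromosomes 4, 7 and 15 in order of position (horizontal axes, row number); blue bars are medians of windows of 25 rows, the dashed line is the border of the arms, and triangles are rows beyond the axis. The level of chromosome 4 drops to a median of -0.86 over the last 30 rows of 4p and is back near 0 in 4q, chromosome 7 changes from 0.20 in 7p to -0.39 in 7q, and chromosome 15 goes from -0.25 in its first 100 rows to -0.65 in the last 36.

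On chromosome 7 the arms differed in direction. The long arm 7q (73.4 to 159.1 Mb) was lower in DS6 over its whole length, with 105 of 122 rows below PC9-VU. Of the 122 rows of the arm, 34 (27.9%, against 4.73% of all rows) were at least 1.5-fold lower. Its 4 windows had medians of -0.40, -0.35, -0.55 and -0.32 from the centromere outwards, and the 22 rows after the last window had a median of -0.38. The lowest of them, 7q window 3 (100.6 to 108.5 Mb), had all 25 rows below PC9-VU, with an interval of -0.66 to -0.38. A run of 38 neighbouring rows from 99.8 to 117.2 Mb was below PC9-VU without exception, at a median of -0.46. The intervals of the 4 windows overlap, and no border within 7q was resolved. The level was similar in rows with many counts (-0.40) and with fewer (-0.38).

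The summed level of 7q was 12739 CPM in DS6 (counting interval 12609 to 12870) and 16626 CPM in PC9-VU, a ratio of 0.766 (exact 95% interval 0.756 to 0.776). DS7, with 12943 CPM, overlapped DS6 in its counting interval, and DS9 was lower still at 11926 CPM. The other 4 libraries were between 16426 CPM in DS8 and 18185 CPM in DS3. The low level of 7q was thus not particular to DS6, since DS6, DS7 and DS9 were all below the other 5 libraries. As median differences from PC9-VU, which all these comparisons share, DS7 was at -0.48, DS9 at -0.44, DS3 at 0.05, DS8 at 0.03, PC9-BR1 at 0.06 and PC9-MGH at 0.02. Against the median of the other 6 libraries, without PC9-VU, DS6 was at -0.30, and PC9-VU itself was at 0.09.

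The short arm 7p (0.2 to 56.1 Mb) was the arm with the highest median in DS6, with 55 of 71 rows above PC9-VU. Of the 71 rows of the arm, 6 (8.45%, against 4.79% of all rows) were at least 1.5-fold above. Its windows were at 0.10 (interval -0.01 to 0.26) and 0.22 (interval 0.14 to 0.31), and the 21 rows after them at 0.15. The difference was small beside the SD of 0.32 between the rows of the arm. Its rows with many counts were at 0.12 and the others at 0.25. The summed level was 44594 CPM in DS6 and 38795 CPM in PC9-VU, with 37% of the counts in a single row. DS6 lay within the range of the other libraries, from 34934 CPM in DS8 to 50140 CPM in PC9-MGH. By the median over rows, against the median of the 8 libraries, it was level with DS7 at 0.10, close above PC9-MGH at 0.08.

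Chromosome 15, of which only the long arm holds rows, was lower in DS6 throughout, and more so towards its end. Of 136 rows, 113 were below PC9-VU, 28 (20.6%, against 4.73% of all rows) at least 1.5-fold, and none was 1.5-fold above. The windows had medians of -0.29, -0.20, -0.28 and -0.23 up to 74.7 Mb, and then -0.59 (interval -0.75 to -0.32) in window 5 (74.7 to 90.1 Mb). The 11 rows after it, from 90.2 to 101.5 Mb, had a median of -0.97 with a wide interval (-1.16 to 0.16).

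When the arm was divided at the end of window 4, rows 1 to 100 had a median of -0.25 (interval -0.32 to -0.20). Of them, 82 were below PC9-VU and 7 (7.0%, against 4.73% of all rows) at least 1.5-fold lower. Rows 101 to 136 had a median of -0.65 (interval -0.81 to -0.36), 31 of 36 below and 21 (58.3%) at least 1.5-fold lower. The intervals of the 2 parts do not overlap, but the division was made after the values were seen.

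In the first part, the summed level was 13059 CPM in DS6 and 15558 CPM in PC9-VU. DS9 with 12989 CPM and PC9-BR1 with 12492 CPM were as low or lower, and DS3 with 19299 CPM was the highest, but a single row held 29.5% of the counts of these sums. In the last part, DS6 was at 3276 CPM (counting interval 3210 to 3342) and PC9-VU at 4698 CPM, and the other 6 libraries were between 4035 CPM in PC9-BR1 and 6198 CPM in PC9-MGH. DS6 was the lowest of 8 in 23 of these 36 rows (63.9%, against 10.3% of all rows). In the first 100 rows it was the lowest in 13, which is close to the share in all rows. Differences from the shared PC9-VU library in the last part were 0.24 in DS7, -0.05 in DS9, 0.13 in DS3, 0.16 in DS8, -0.33 in PC9-BR1 and -0.04 in PC9-MGH. By the median over rows, against the median of the 8 libraries, DS6 was at -0.57 in the last part, 0.35 below the next library (PC9-BR1 at -0.22). In the first part it was at -0.14, level with PC9-BR1 at -0.13 and DS9 at -0.11.

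In 17p (0.2 to 21.3 Mb) the difference was shallow but spread evenly over the arm. DS6 was below PC9-VU in 88 of 97 rows. Of the 97 rows, 12 (12.4%, against 4.73% of all rows) were at least 1.5-fold lower. The 3 windows were at -0.28, -0.27 and -0.29, the 22 rows after them at -0.27, and the SD between the rows of the arm was 0.25, against 0.39 over all rows. A run of 40 neighbouring rows from 4.1 to 7.9 Mb was below PC9-VU, the longest such run in the genome. The summed level was 30756 CPM in DS6, 31125 CPM in PC9-BR1, 31432 CPM in DS7, 33470 CPM in PC9-MGH and 37698 CPM in PC9-VU, while DS8, DS3 and DS9 were between 39104 and 41855 CPM. By these sums, of which a single row held 23.2%, the counting interval of DS6 (30555 to 30959) overlapped that of PC9-BR1 (30918 to 31333). By the median over rows, against the median of the 8 libraries, PC9-BR1 was lowest at -0.25, followed by DS7 at -0.21 and DS6 at -0.20.

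The values for 21q (29.7 to 45.3 Mb) depended on which library DS6 was compared with. Against PC9-VU, 31 of 35 rows were below and 5 (14.3%, against 4.73% of all rows) at least 1.5-fold lower. The summed level was 2206 CPM in DS6, between 2060 CPM in DS8 and 2418 CPM in DS7 and close to 2165 CPM in PC9-BR1 and 2331 CPM in DS9, while PC9-VU was at 2702 CPM and PC9-MGH and DS3 at 3296 and 3453 CPM. Against the median of the other 6 libraries, DS6 was at -0.06 and PC9-VU at 0.29. In this arm PC9-VU had the third highest and DS6 the third lowest sum of the 8 libraries.

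A further stretch was seen at the end of 20q, where the arm as a whole was at -0.07. All 21 rows from 49.0 to 64.3 Mb were below PC9-VU, at a median of -0.35 (interval -0.56 to -0.25), whereas the 43 rows before them were at 0.02. Their summed level was 4432 CPM in DS6 and 5503 CPM in PC9-VU, with PC9-MGH lower at 4176 CPM and the other 5 libraries between 5075 and 6759 CPM. This run, too, was picked after the values were seen.

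**Figure D4:**
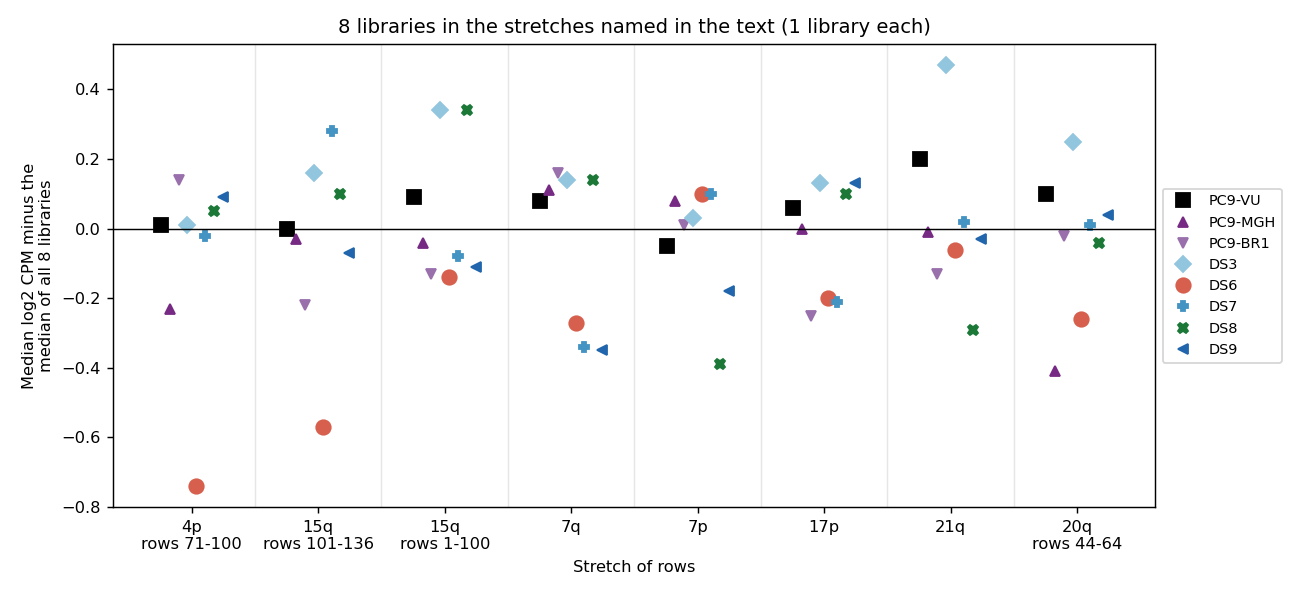
Median log2 CPM minus the median of all 8 libraries (vertical axis) in 8 stretches of rows (horizontal axis), 1 point per library. DS6 (red circles) is below every other library at the end of 4p, at -0.74, and at the end of 15q, at -0.57, is grouped with DS7 and DS9 in 7q and with DS7 and PC9-BR1 in 17p, and is near 0 in 21q, where PC9-VU is at 0.20.

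Stretches higher in DS6 were weaker. The 5 windows with the largest medians were 9p window 1 at 0.27 (0.2 to 13.3 Mb, interval 0.19 to 0.36), 3q window 5 at 0.24, 1p window 9 at 0.23, 17q window 3 at 0.22 and 7p window 2 at 0.22. In 9p window 1, 23 of 25 rows were above PC9-VU and 5 at least 1.5-fold, against 4.79% of all rows. Its summed level was 3394 CPM in DS6, 2739 CPM in PC9-VU and between 2632 and 3229 CPM in the other 6 libraries. It was the window in this group where DS6 was most often the highest of the 8 libraries, in 8 rows, against 9.98% of all rows. In 3q window 5 and 1p window 9 PC9-MGH was far higher than DS6, with differences from PC9-VU of 0.64 and 0.91. The arms 5q, 9p and 12p had 11 of 103 (10.7%), 10 of 104 (9.62%) and 8 of 60 rows (13.3%) at least 1.5-fold higher, against 4.79% of all rows. Their medians were at most 0.13. In 10p, with a median of 0.15, only 1 of 27 rows (3.7%) was at least 1.5-fold higher. In 22q, with a median of -0.02, 9 of 111 rows (8.11%) were, so these shares did not follow the medians.

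Single rows with large differences were few and mostly lay apart from these stretches. DS6 was at least 4-fold above PC9-VU in 3 rows (0.0662%) and at least 4-fold below in 8 (0.177%). The 2 largest increases were neighbouring rows of 9q. The row at 74.5 Mb had 166 counts in PC9-VU, 111 to 180 in the other 6 libraries and 1954 in DS6, a CPM ratio of 14.5. The next row, at 74.7 Mb, had 384 counts in PC9-VU, 263 to 438 in the other 6 and 4998 in DS6, a ratio of 16.1. The 6 other libraries and PC9-VU lay in a narrow band in both rows, and DS6 was far above it. The third, at 41.2 Mb of 19q, had 79 counts in PC9-VU and 329 in DS6, but 1905 in PC9-MGH.

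Among the lower rows, the row at 30.7 Mb of 4p had 235 counts in PC9-VU and 0 in DS6, which is at least 63.4-fold lower when 3 counts are taken as the floor of the DS6 library. DS3 had 1 count there, and the other 5 libraries 101 to 902. A row at 67.7 Mb of 1p had 51 counts in PC9-VU, 30 to 128 in the other 6 libraries and 0 in DS6, at least 13.8-fold lower. In the row at 88.8 Mb of 15q the counts were 182 in PC9-VU, 12 in DS6 and 44 to 209 in the other 6. The other 5 were at 205.7 Mb of 2q, 33.5 and 36.6 Mb of 5p, 3.1 Mb of 19p and 47.2 Mb of 20q. In the row at 3.1 Mb of 19p, DS3 and DS8 had fewer counts (0 and 3) than DS6 (6), and in the row at 33.5 Mb of 5p DS9 did (2 against 7), so neither was particular to DS6. In the row at 47.2 Mb of 20q, DS7 was nearly as low, with 48 counts against 44 in DS6. These positions are those of the row names and do not identify the transcripts.

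Among the 7 populations set against PC9-VU, which all share that library, DS6 was one of those with few regional differences. At least 1.5-fold apart from PC9-VU were 217 rows above and 214 below in DS6, 135 and 143 in DS3, 130 and 246 in DS7, 181 and 193 in DS9, 371 and 366 in DS8, 255 and 306 in PC9-BR1, and 680 and 738 in PC9-MGH. Windows with a median at least 0.32 above and below on the log2 scale were 0 and 6 in DS6, 0 and 4 in DS3, 2 and 5 in DS7, 2 and 8 in DS9, 12 and 8 in DS8, 11 and 14 in PC9-BR1, and 22 and 21 in PC9-MGH. In DS6 and DS3 no window was that far above the parent.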

How the data were processed

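RNA of 8 untreated PC9 populations was sequenced after depletion of ribosomal RNA and selection of polyadenylated RNA. Reads from both ends were mapped by the authors to hg38 (STAR, version 2.5.2b) and counted (featureCounts, version 1.6.4) with the annotation of their single-cell data. The authors deposited raw counts per row. The strand setting is not given in the sources used here. Rows without a symbol held 4.38% of the counts of PC9-VU and 4.37% of those of DS6.

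The log2 CPM scale comes from edgeR (version 4.0.16, R version 4.3.3), with TMM factors estimated on rows whose mean reached 10 counts. Differences, medians, order-statistic intervals and exact intervals were computed in Python (version 3.11.15, scipy version 1.17.1). Arms were divided at hg38 centromeres rounded to whole megabases, and windows of 25 rows were counted from the start of each arm. The steps were tested on simulated data. Populations were grouped by their labels, with 1 library each, so no test was made.

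No gene was to be named. Named are all arms and windows of chromosomes 7 and 15, and the 5 highest and 5 lowest arms and windows. The comparison, arms and windows were chosen with earlier results of these data known, and the runs, the divisions of 4p, 15q and 20q, 17p and 21q in detail and the rows at least 4-fold apart after their values were seen. Alternatives covered normalization (DESeq2 version 1.42.0 among them), filters, prior count, depth, reference, summary and window size.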

Additional observations from a re-analysis of the deposited data

Results flagged for a closer look

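In 26 arms and windows the 5 sublines were examined for one that lay far from the other 4, by the ratio of its gap to the range of all 5 (critical value 0.71), which chance exceeds in about 1 in 20 groups. The ratio was exceeded in 3. In 4p window 4, DS6 was farthest, at -0.72 against the median of the 8 libraries, with the other 4 sublines between -0.01 and 0.11. In the arm 4p as a whole, DS8 was farthest at 0.35, with DS6 at -0.10. In 10p, DS3 was farthest at -0.49, with DS6 at 0.12. The arms and windows were partly selected for the difference of DS6 from PC9-VU, in which 4p window 4 was the lowest of 165 windows. Some of the arms also contain windows that were examined. The rate of 1 in 20 therefore does not apply to these 26. The counts of 3, and of 1 with DS6 farthest, are a description.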

How the results depend on the processing

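No median of the 10 named arms was reversed under the alternatives, and 7 of 130 recomputed arm medians and 4 of 208 window medians left the interval of the reported value. Across the alternatives that give a median, 4p window 4 ranged from -0.85 to -0.64, 15q window 5 from -0.63 to -0.50, 7q from -0.43 to -0.30, 15q from -0.34 to -0.23, 17p from -0.31 to -0.25, 4p from -0.31 (ratio of summed counts) to -0.10, 7p from 0.10 to 0.21, 10p from 0.12 to 0.28, 9p from 0.04 to 0.18, 12p from 0.09 to 0.18 and 5q from 0.03 (mean of at least 200 counts) to 0.14. With the median of the other 6 libraries in place of PC9-VU, 7q was at -0.30, 15q at -0.23, 7p at 0.10 and 21q at -0.06, and 3 windows were at least 0.32 below on the log2 scale. The counts depended on the scaling and on the filter. With TMM factors from the 2 libraries alone, 207 rows were at least 1.5-fold above and 221 below, with 7 windows below. With DESeq2 size factors the rows were 194 and 228, with 7 windows below. With library totals only the rows were 184 and 246, with 9 windows below. No window was above under any of these scalings. Rows at least 1.5-fold above and below were 537 and 514 at a mean of at least 10 counts, with 1 window above and 10 below. They were 61 and 83 at a mean of at least 200 counts, with 2 windows below. They were 2084 and 1440 with no filter beyond 1 count, with 15 windows above and 22 below. With a 2-fold limit the rows were 34 and 54. Windows above were 2 with the mean of the rows and 3 with the ratio of summed counts. Windows of 15 rows gave 1 above and 13 below, and windows of 50 rows 3 below. The cause of these shifts was not tested, except that fewer or more rows enter under another filter. At a mean of at least 200 counts, 15q window 3 was at 0.06 (interval -0.36 to 0.26), against -0.28. Depth limits single rows, whose counting error reaches the size of the regional differences at low counts. No paired analysis was possible because each population has 1 library.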
